A study of Homo sapiens with 6 samples.

Results

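Solute carriers are membrane proteins that move sugars, amino acids, ions, metals, nucleosides and metabolites across the cell surface and organelle membranes. The members described here are the genes whose symbol starts with SLC and a family number, apart from SLC7A5 and SLC3A2, and they are 80 of the 5117 genes in the deposited table. They belong to 31 numbered families and were grouped by substrate. RNA had been sequenced from HMC3, an established human microglial cell line labelled as wild type, after treatment with CM containing C1s (C1s-CM, 3 libraries) or CM without C1s (control CM, 3 libraries, titled FLAG). The labels do not spell out CM, which is read here as conditioned medium. As background, C1s is the complement protease that cleaves C4 and C2. All libraries come from 1 cell line, and both groups received CM. The labels do not say whether replicates were separate cultures, so p-values here reflect the spread among libraries alone, possibly a technical one. They name neither the source of the CM nor the length of treatment.

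The table had been selected before deposit. Its largest adjusted p in the authors' deposited table was 0.05, so every member had passed the authors' threshold, and other solute carriers were not analysed here. The table's counts ranged from 14195082 to 14961744 per library with C1s-CM, against 12730766 to 13863120 with control CM, and the members held 1.31%. Member counts ranged from 44 to 27138 per library, and no member was at 0. None of the 12 microglia and macrophage markers, 6 astrocyte, 4 oligodendrocyte, 4 neuron, 3 endothelial or 4 glioma markers listed had a row. Of 6 fibroblast and pericyte markers COL1A1, PDGFRB and THY1 had one, with a summed level of 5010 to 5140 CPM in C1s-CM and 4833 to 4931 CPM in control CM. The microglial label could therefore not be checked against its defining markers in this table.

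As background, most solute carriers fall into a few working types. Facilitative carriers such as the glucose transporters let a solute run down its gradient. Coupled carriers use the gradient of sodium, protons or chloride to drive uptake or export, and exchangers swap one solute for another. Most SLC25 carriers sit in the inner mitochondrial membrane and link the cytosol with the citric acid cycle and oxidative phosphorylation. The SLC39 proteins bring zinc into the cytosol and most SLC30 proteins carry it out of the cytosol into organelles or out of the cell, while SLC30A9 is known as a zinc exporter of mitochondria. In microglia and macrophages, carriers for glucose, glutamine and lactate serve fuel metabolism, and bicarbonate carriers regulate intracellular pH.

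Of the 80 members, 47 were higher and 33 lower in C1s-CM at adjusted p under 0.05 in edgeR's quasi-likelihood test with TMM scaling. Over all tested genes 99.4% passed, 50.9% higher and 48.5% lower, since the table held genes that had already been called. The number of members past the threshold is therefore no result about the members. The log2 fold changes of the members ran from -0.78 to 0.83 with a median of 0.14, and that of all tested genes had a median of 0.080. Their median absolute log2 fold change was 0.31, against 0.31 for all tested genes. Only 8 members differed by at least 1.5-fold in this fit, 1 higher and 7 lower, and none differed by 2-fold. The libraries of the groups did not overlap for 78 of the 80 members and for 97.1% of all genes. The exceptions were SLC19A1, the reduced folate carrier, and SLC22A17, a receptor for the iron-binding protein lipocalin-2, both named after their values were seen. With total counts as the only scaling the median of all tested genes was -0.045, 21 members were called higher and 33 lower, and of all tested genes 75.3% were called, 26.1% higher and 49.2% lower.

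The direction of the members ran along the base composition of their transcripts, as it did across the table. Where G and C made up 50% or more of the representative transcript, all 45 members rose, as did 98.0% of the 2525 tested genes in that range. Of the 35 members under 50%, 2 were higher and 33 lower, and 6.15% of the 2587 tested genes in that range were higher. Members that rose had a median GC content of 61.5% and members that fell 39.5%. At the last bases of codons the medians were 79.0% and 43.1%, and the median transcript lengths were 2505 and 4879 bases. Over the 80 members, which share their libraries, GC content and log2 fold change had a Spearman's rho of 0.77, and 0.84 without SLC4A7. Because all 3 libraries of a group share this difference along GC content, its source cannot be told apart from the treatment. Each result below is therefore also given from a fit with offsets, in which every library's smooth trend of log2 CPM on transcript GC content and length was taken out, an adjustment that would also remove a response that followed GC content.

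With offsets the fold changes of most members were small. Only 13 of 80 passed the threshold (16.2%), 6 higher and 7 lower, where 25.8% of the 5112 tested genes passed, 14.3% higher and 11.5% lower. The median log2 fold change of the members was -0.0027 and their median absolute log2 fold change 0.066, against -0.0019 and 0.080 for all tested genes. With the longest transcript of each gene, 5 members were higher and 8 lower, and 27.0% of all tested genes were called. A single member, SLC4A7, differed by at least 1.5-fold. Between a GC content of 45% and 55% the offsets left more calls than elsewhere, with 52% of 775 tested genes past the threshold, against 23.3% below and 18.8% above that range. Of the 13 members called, 4 lay in that range, among 10 members there.

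**Figure D1:**
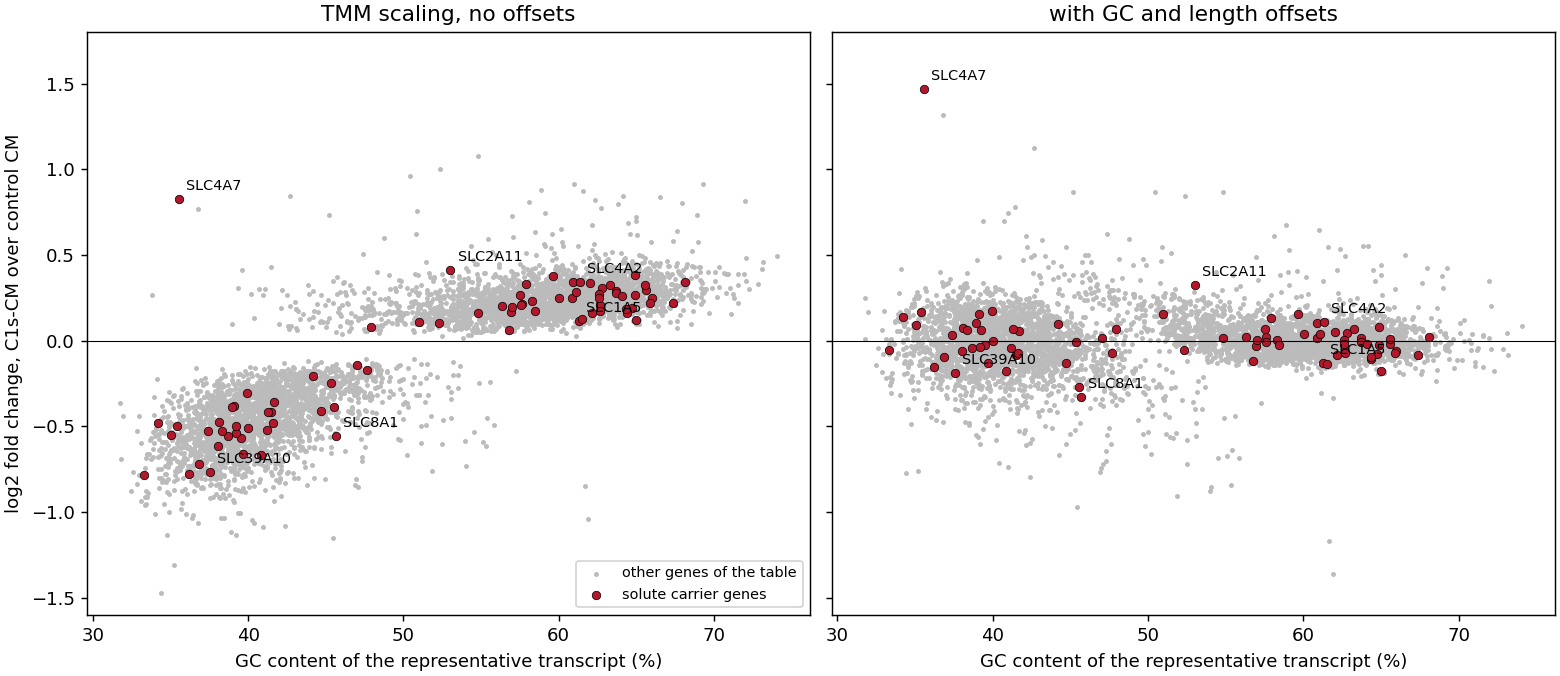
Log2 fold change of C1s-CM over control CM against the GC content of each gene's representative transcript, without offsets (left) and with GC and length offsets (right), for the solute carrier genes (red) and the other genes of the table (grey); 6 genes on the left and 6 on the right lie above the axis and are not drawn, nor are 4 genes without a GC content. Without offsets all 45 solute carriers with a GC content of at least 50% lie above 0, and SLC4A7 is the 1 of 20 under 40% that lies above 0.

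The bicarbonate carrier SLC4A7 had the largest rise of the members in both fits. It stood apart in size with offsets, while without them the falls of other members reached -0.78. SLC4A7 encodes NBCn1, which brings sodium and bicarbonate into the cell together and so raises intracellular pH. It had 506, 566 and 617 counts in the C1s-CM libraries, against 323, 335 and 301 counts in the control libraries. These correspond to 37.1, 39.7 and 45.3 CPM in the C1s-CM libraries, against 24.5, 23.7 and 20.6 CPM in the control libraries. Every C1s-CM library lay above every control library. The log2 fold change was 0.83 ± 0.082 (SE, adjusted p = 3.62e-09, edgeR), a 1.78-fold rise, and with offsets it was 1.47 ± 0.084 (adjusted p = 2.91e-12). Leaving out each library in turn gave 0.74 to 0.89 without offsets and 1.38 to 1.55 with them, all past the threshold. The transcript of SLC4A7 had a GC content of 35.5%, and of 85 tested genes from 35 to 36% it was the 1 that was higher in C1s-CM. Of the 1175 tested genes under 40% 7 were higher, and 1 had a larger log2 fold change without offsets than SLC4A7. With offsets 6 genes of the table had a larger log2 fold change. The range of 35 to 36% is the one that holds SLC4A7 itself. Genes that missed the authors' threshold are absent from all of these counts and from the trend behind the offsets. On GRCh38, SLC4A7 (ENSG00000033867) is a protein-coding gene on chromosome 3 (27372721 to 27484420, minus strand), the coordinates span the whole gene, and it shares no exonic base with another gene of GENCODE 29.

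The other SLC4 genes with a row rose too, from transcripts rich in GC. SLC4A2 encodes the chloride and bicarbonate exchanger AE2, which usually carries bicarbonate out of the cell, and lies on chromosome 7 (151057210 to 151076527, plus strand). It had 439, 415 and 433 CPM in the C1s-CM libraries, against 339.8, 332 and 342 CPM in the control libraries, and the groups did not overlap. Its log2 fold change was 0.34 ± 0.029 (SE, adjusted p = 3.4e-10, edgeR), and 0.11 ± 0.025 with offsets (adjusted p = 0.00219), and it stayed past the threshold without each library in turn. Its transcript had a GC content of 61.3%. Per kilobase of transcript, which allows levels of different genes to be compared, SLC4A2 had 87.1 CPM per kb in C1s-CM and 68.6 CPM per kb in control CM, and SLC4A7 had 5.24 CPM per kb in C1s-CM and 2.96 CPM per kb in control CM. SLC4A2 shares 331 exonic bases with CDK5 on the opposite strand and 714 with a noncoding antisense gene, and the use of strand in counting is not given in the sources used here. SLC4A3, the anion exchanger AE3, had a log2 fold change of 0.32 ± 0.068 (SE), and 0.070 ± 0.065 with offsets, which missed the threshold (adjusted p = 0.468).

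Members of 1 family could differ in base composition even where their coding sequences were most alike, as in the pairs shown here. Over the whole coding sequence the GC content was 42.1% in SLC4A7 and 63.0% in SLC4A2, and 45.1% in SLC25A24 and 61.1% in SLC25A23. SLC4A3 had 62.5%, close to SLC4A2, so not all members of a family differed. The windows shown were chosen for likeness, and the difference is smaller in them than over the whole coding sequence. The lines below give, 5′ to 3′ on the coding strand, the 120 coding bases at which each pair of paralogs is most alike without gaps, from the representative GENCODE 29 transcripts on GRCh38, with G and C in capitals. They are coding bases 1786 to 1905 of SLC4A7, 2086 to 2205 of SLC4A2, 1132 to 1251 of SLC25A24 and 1105 to 1224 of SLC25A23, counted from the start codon. The first pair is SLC4A7 with SLC4A2, which both rose. The second is SLC25A24 (chromosome 1) with SLC25A23 (chromosome 19), mitochondrial carriers that exchange ATP-magnesium for phosphate, which moved in opposite directions with TMM scaling and no offsets.
SLC4A7: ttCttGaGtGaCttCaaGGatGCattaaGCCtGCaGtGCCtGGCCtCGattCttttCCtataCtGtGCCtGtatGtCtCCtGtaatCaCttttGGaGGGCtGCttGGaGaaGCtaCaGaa
SLC4A2: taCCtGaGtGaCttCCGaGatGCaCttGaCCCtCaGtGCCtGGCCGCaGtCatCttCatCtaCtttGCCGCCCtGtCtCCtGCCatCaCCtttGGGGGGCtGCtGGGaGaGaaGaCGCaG
SLC25A24: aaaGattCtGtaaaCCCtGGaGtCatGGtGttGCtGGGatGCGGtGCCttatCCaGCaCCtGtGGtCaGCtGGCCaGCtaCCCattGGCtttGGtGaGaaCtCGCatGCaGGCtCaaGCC
SLC25A23: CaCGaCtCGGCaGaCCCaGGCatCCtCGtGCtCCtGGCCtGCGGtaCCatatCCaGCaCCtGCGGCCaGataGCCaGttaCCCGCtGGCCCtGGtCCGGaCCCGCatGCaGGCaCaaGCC
Within the first pair 84 of 120 bases were identical, and G and C made up 56 bases in SLC4A7 and 70 in SLC4A2 (58.3%). Within the second pair 89 of 120 were identical, and G and C made up 66 bases in SLC25A24 and 80 in SLC25A23 (66.7%). Of the 40 last codon positions in each window, 19 were G or C in SLC4A7 and 28 in SLC4A2, and 23 in SLC25A24 and 32 in SLC25A23.

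SLC25A24 had 33.7, 32.5 and 33.8 CPM in the C1s-CM libraries, against 47.9, 50.5 and 48.4 CPM in the control libraries. SLC25A23, named with its paralog after its values were seen, had 283, 259.9 and 262 CPM in the C1s-CM libraries, against 238, 231 and 244 CPM in the control libraries. Neither had overlapping groups, and the log2 fold changes were -0.56 ± 0.060 and 0.17 ± 0.034 (SE). With offsets they were -0.044 ± 0.057 (adjusted p = 0.621) and -0.028 ± 0.032 (adjusted p = 0.567, edgeR), and both missed the threshold. Scaled by total counts alone the rise of SLC25A23 missed it too, at 0.048 (adjusted p = 0.21).

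Beside SLC4A7 and SLC4A2, 6 members were called in the same direction in both fits. Of all tested genes 25.8% were called with offsets, and how many of them kept or reversed their direction was not counted. The zinc importer SLC39A10 had 60.5, 59.2 and 53.2 CPM in the C1s-CM libraries, against 97.7, 99.9 and 96.5 CPM in the control libraries. All C1s-CM libraries were below all control libraries, and the log2 fold change was -0.77 ± 0.050 (SE, adjusted p = 5.21e-12, edgeR), and -0.19 ± 0.048 with offsets (adjusted p = 0.00442). Its call with offsets was lost without C1s-CM replicate 3 (adjusted p = 0.0516). Without offsets 168 tested genes had a lower log2 fold change than SLC39A10, 132 of them with a GC content under 40%, and with offsets 418 did. SLC39A10 lies on chromosome 2 (195575977 to 195737702, plus strand).

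SLC6A6, the taurine transporter, had 181, 172 and 187 CPM in the C1s-CM libraries, against 167, 163 and 169 CPM in the control libraries. The groups lay close together without overlap, and the log2 fold change was 0.11 ± 0.035 (SE, adjusted p = 0.00471), 0.15 ± 0.033 with offsets (adjusted p = 0.000962, edgeR) and -0.014 with total counts as the only scaling, where it missed the threshold. The longest transcript gave SLC6A6 0.092 (adjusted p = 0.0398) and a loess span of 0.6 gave 0.21 (adjusted p = 4.1e-05). It lies on chromosome 3 (14402576 to 14489349, plus strand). Its GC content, 51.0%, is in the range where 52% of all genes were called with offsets.

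SLC6A9, the glycine transporter GlyT1, had 52.2, 54.8 and 54.7 CPM in the C1s-CM libraries, against 42.1, 41.3 and 41.2 CPM in the control libraries. The groups were well apart, and the log2 fold change was 0.38 ± 0.056 (SE, adjusted p = 1.57e-06), and 0.16 ± 0.054 with offsets (adjusted p = 0.0333, edgeR). With offsets it kept its call in 1 of the 6 fits that left out a library, the one without C1s-CM replicate 1, and its adjusted p reached 0.0964. With the longest transcript it missed the threshold (adjusted p = 0.0644).

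SLC2A11, which encodes the sugar transporter GLUT11, had 13.1, 13.4 and 10.9 CPM in the C1s-CM libraries, against 9.48, 9.13 and 9.52 CPM in the control libraries. The C1s-CM libraries spread more than the controls and stayed above them, and the log2 fold change was 0.41 ± 0.11 (SE, adjusted p = 0.00145), and 0.32 ± 0.11 with offsets (adjusted p = 0.0346, edgeR). With offsets it kept its call only without C1s-CM replicate 3, with an adjusted p of up to 0.131 in the other 5 such fits. With the longest transcript SLC2A11 missed the threshold (0.20, adjusted p = 0.186). It shares 431 exonic bases with an overlapping protein-coding gene on the same strand and 1040 with an antisense gene.

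SLC25A3, the mitochondrial phosphate carrier, was the most abundant member per kilobase, with 1066 CPM per kb in C1s-CM and 1008 CPM per kb in control CM. It had 1415, 1464 and 1467 CPM in the C1s-CM libraries, against 1382, 1371 and 1357 CPM in the control libraries. The groups did not overlap and differed by little, with a log2 fold change of 0.081 ± 0.026 (SE, adjusted p = 0.00525) and 0.067 ± 0.022 with offsets (adjusted p = 0.0264, edgeR). Scaled by total counts alone it was -0.044, which missed the threshold. With offsets from the longest transcript the value was 0.40, so the size for SLC25A3 depends on which transcript is taken. Its call with offsets was lost without C1s-CM replicate 2 or 3 and without control CM replicate 2 or 3, with an adjusted p of up to 0.129.

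SLC8A1, the sodium and calcium exchanger NCX1, had 11.1, 9.67 and 10.4 CPM in the C1s-CM libraries, against 14.8, 14.1 and 16.7 CPM in the control libraries. The C1s-CM libraries were all lower, and the log2 fold change was -0.55 ± 0.11 (SE, adjusted p = 4.67e-05), and -0.33 ± 0.10 with offsets (adjusted p = 0.0216, edgeR). With offsets from the longest transcript it was 0.0076 (adjusted p = 0.969), and the call was also lost without C1s-CM replicate 2 or 3 or control CM replicate 3. SLC2A11, SLC25A3 and SLC8A1 also lie between 45% and 55% GC.

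Another 5 members were called in opposite directions by the 2 fits, higher without offsets and lower with them. Of all tested genes 11.5% were called lower with offsets, and how many of those were higher without offsets was not counted. The number of such members is therefore no result about them. SLC1A5, the glutamine transporter ASCT2, had 509, 499 and 495 CPM in the C1s-CM libraries, against 458, 466 and 465 CPM in the control libraries. The C1s-CM libraries were all higher, by a log2 fold change of 0.11 ± 0.027 (SE, adjusted p = 0.000337), which turned to -0.13 ± 0.024 with offsets (adjusted p = 0.000246, edgeR). Scaled by total counts alone it was -0.011, which missed the threshold.

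SLC16A3 encodes MCT4, which exports lactate from glycolytic cells, and had 1366, 1292 and 1266 CPM in the C1s-CM libraries, against 1162, 1174 and 1143 CPM in the control libraries. Its log2 fold change was 0.17 ± 0.029 (SE, adjusted p = 7.18e-06), and -0.071 ± 0.024 with offsets (adjusted p = 0.0324, edgeR), a call that was lost in 4 of the 6 fits that left out a library, those without C1s-CM replicate 2 or 3 and without control CM replicate 1 or 2. Scaled by total counts alone SLC16A3 missed the threshold, at 0.049 (adjusted p = 0.11). The groups of SLC16A3 did not overlap, and it shares 482 exonic bases with CSNK1D on the opposite strand.

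The riboflavin transporter SLC52A2 had 97.8, 92.0 and 95.3 CPM in the C1s-CM libraries, against 85.4, 90.7 and 86.0 CPM in the control libraries. SLC44A2, a choline transporter-like protein, had 314, 328 and 322 CPM in the C1s-CM libraries, against 309.7, 301 and 313 CPM in the control libraries. SLC9A3R1 encodes the scaffold protein NHERF1, which binds transporters and is not a transporter itself, and had 476, 455 and 466 CPM in the C1s-CM libraries, against 417, 429 and 432 CPM in the control libraries. In all of these genes the lowest C1s-CM library was above the highest control library, by little in SLC44A2 and SLC52A2. The log2 fold changes were 0.12, 0.064 and 0.13 without offsets, and -0.18, -0.12 and -0.14 with them. With total counts as the only scaling they were -0.0052, -0.062 and 0.0017. The call of SLC44A2 without offsets was lost in 4 of 6 fits that left out a library, those without C1s-CM replicate 2 or 3 and control CM replicate 1 or 2, and with DESeq2, and that of SLC52A2 with DESeq2. The direction of these 5 members therefore depends on the scaling or on the offsets. The exonic bases of SLC52A2 overlap with FBXL6 on the opposite strand over 1069 bases.

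**Figure D2:**
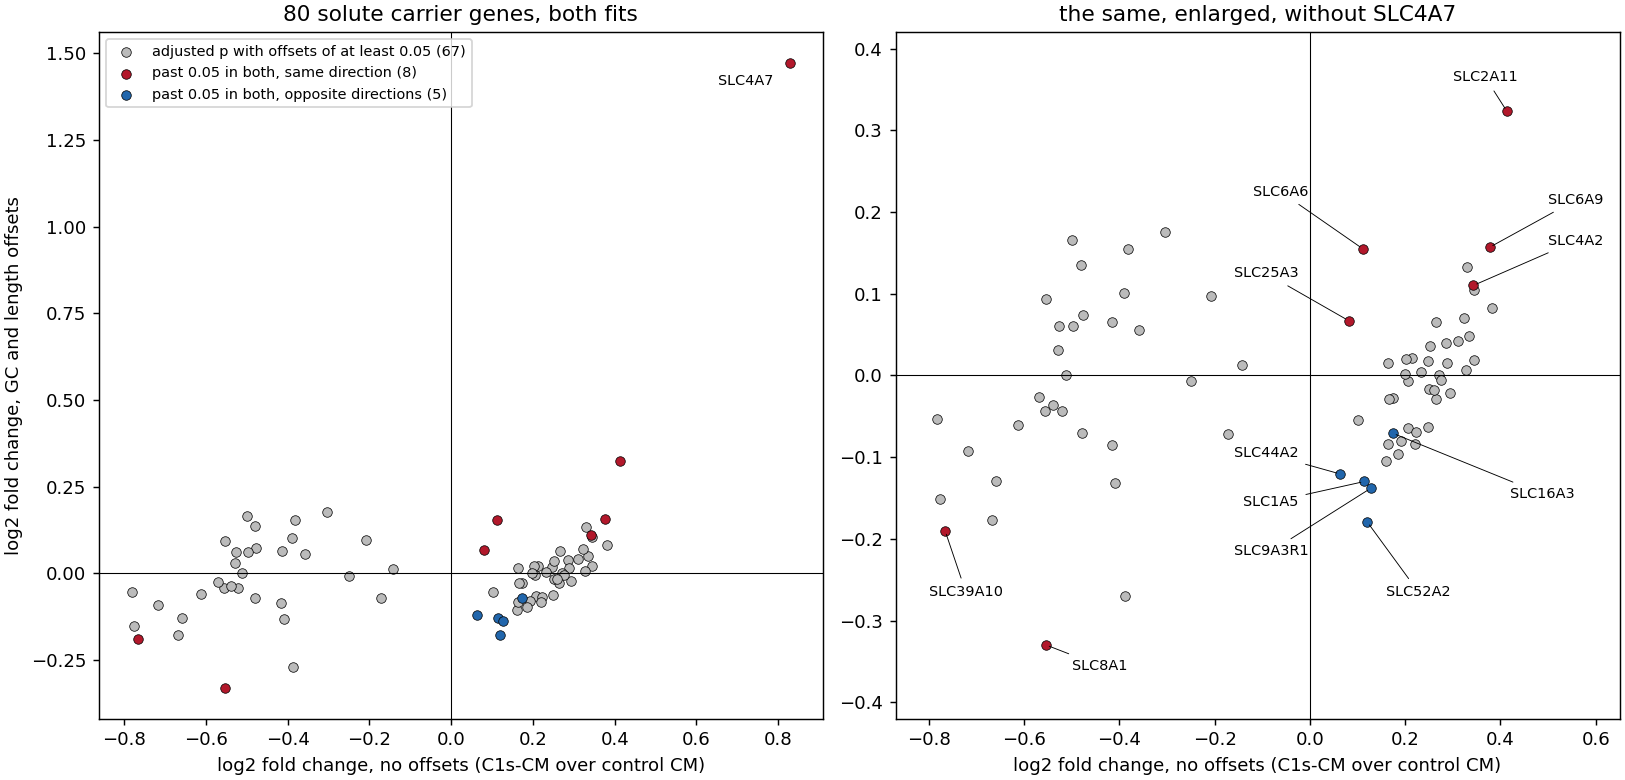
Log2 fold change of each of the 80 solute carrier genes without offsets (x axis) and with GC and length offsets (y axis), with an enlarged view without SLC4A7 on the right. SLC4A7 lies at 0.83 and 1.47, 8 members pass the threshold in the same direction in both fits (red), 5 in opposite directions (blue), and 67 do not pass it with offsets (grey).

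**Figure D3:**
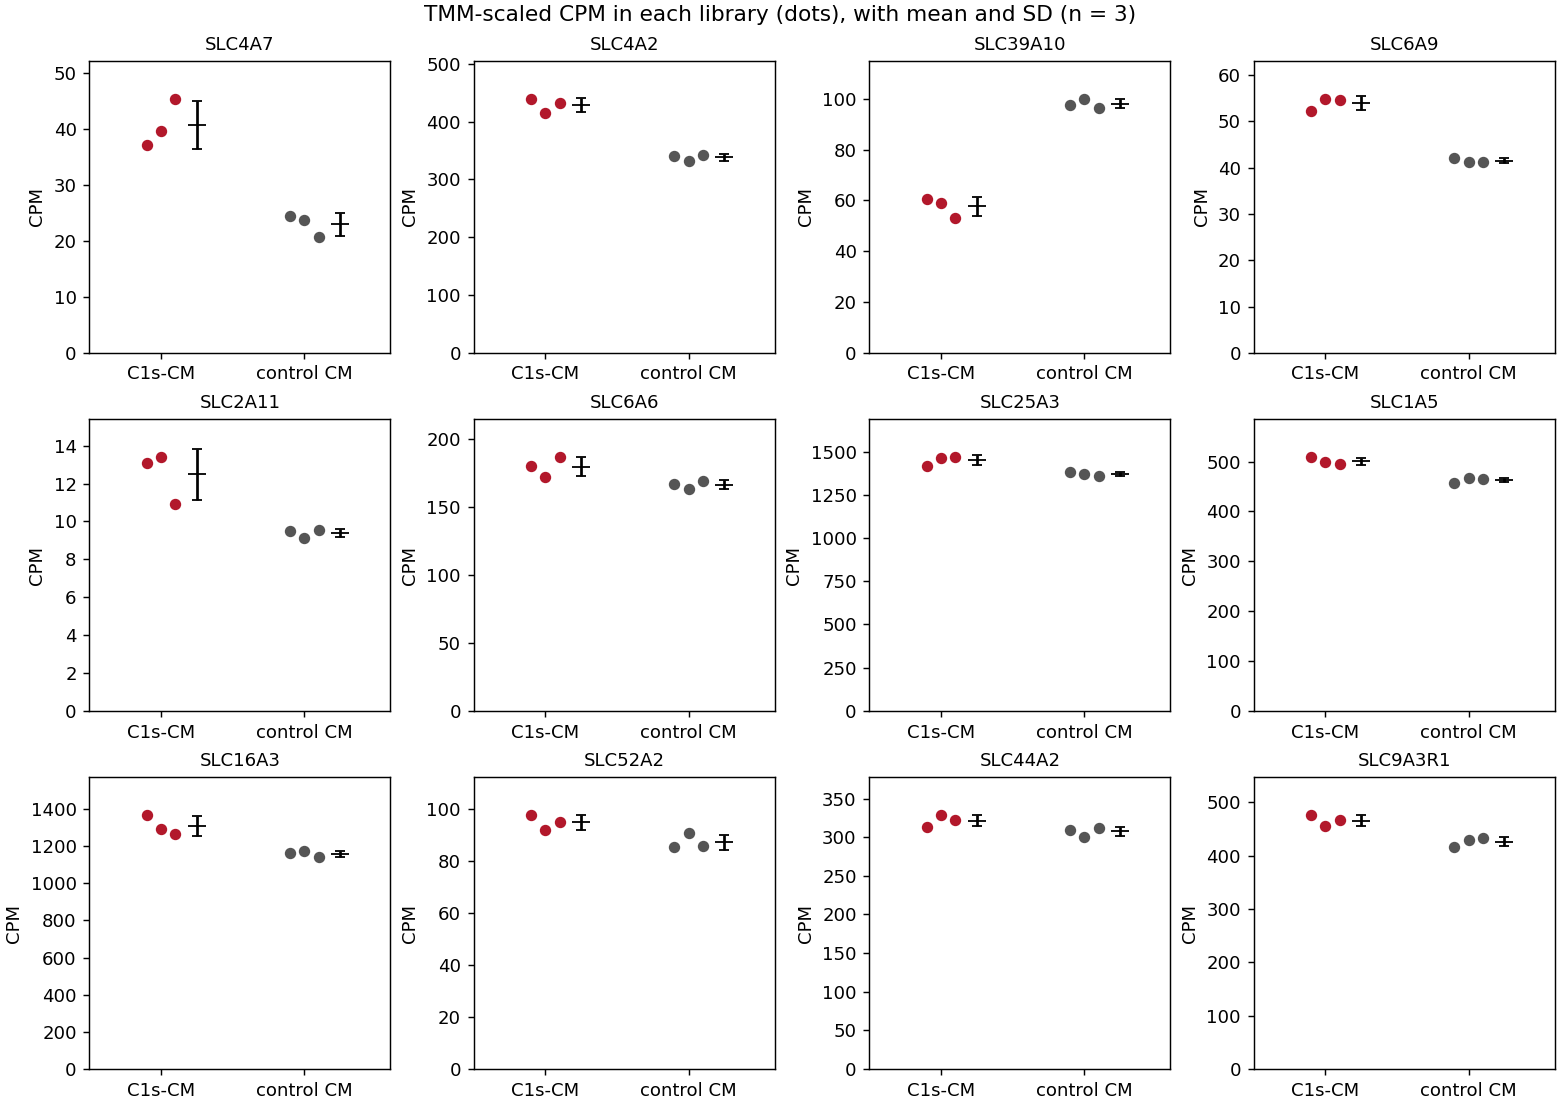
TMM-scaled CPM of 12 solute carrier genes in each library, C1s-CM (red) and control CM (grey), with the mean and SD of each group (n = 3) beside the dots and axes that start at 0. SLC4A7 and SLC39A10 show the widest relative gaps, in opposite directions, while the groups of SLC44A2 and SLC25A3 lie close together.

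Of the 8 sugar carriers with a row, 6 rose and 2 fell. For comparison with this group and those below, 50.9% of all tested genes were higher and 48.5% lower without offsets. With offsets 25.8% of all tested genes were called. The median log2 fold change of the group was 0.18 without offsets and 0.0083 with them, and 1 member, SLC2A11, was called with them. SLC50A1, a sugar transporter of the SWEET family, was the most abundant per kilobase, with 95.3 CPM per kb in C1s-CM and 88.8 CPM per kb in control CM and a log2 fold change of 0.10, which was -0.024 with total counts as the only scaling and missed the threshold there, as it did with DESeq2 and without C1s-CM replicate 3. SLC2A1, named after its values were seen, encodes GLUT1, the main glucose importer of many cell types, and had 205, 209.9 and 199.9 CPM in the C1s-CM libraries, against 188, 179 and 182 CPM in the control libraries. The groups of SLC2A1 did not overlap, with a log2 fold change of 0.16 ± 0.033 (SE, adjusted p = 7.46e-05, edgeR), and 0.015 ± 0.030 with offsets (adjusted p = 0.761). Scaled by total counts alone SLC2A1 missed the threshold, at 0.038 (adjusted p = 0.283). The largest fall was that of SLC5A3, which takes up sodium with the osmolyte myo-inositol, with 90.5 ± 3.08 CPM in C1s-CM and 130.4 ± 8.39 CPM in control CM (SD, n = 3 each). SLC5A3 had a log2 fold change of -0.53, and 0.060 with offsets (adjusted p = 0.308). Summed over the group, the sugar carriers had 698, 712 and 688 CPM in the C1s-CM libraries, against 684, 666 and 693 CPM in the control libraries.

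Of 14 amino acid and peptide carriers, 7 rose and 7 fell. The median log2 fold change of the group was -0.14 without offsets and 0.030 with them. With offsets 3 members (21.4%) were called, SLC6A6 and SLC6A9 higher and SLC1A5 lower, against 25.8% of all tested genes. SLC1A5 was the most abundant per kilobase. The sodium-coupled glutamine carriers SLC38A1 and SLC38A2 and the cystine and glutamate exchanger SLC7A11, which supplies cysteine for glutathione, are named after their values were seen. SLC38A2 had 201, 205 and 200.4 CPM in the C1s-CM libraries, against 272, 281 and 291 CPM in the control libraries. All C1s-CM libraries of SLC38A2 were lower, with a log2 fold change of -0.48 ± 0.032 (SE, adjusted p = 7.51e-12, edgeR), and 0.074 ± 0.029 with offsets (adjusted p = 0.0688). The log2 fold change was -0.41 for SLC38A1 and -0.50 for SLC7A11, and with offsets 0.065 and 0.17, which missed the threshold (adjusted p = 0.286 and 0.204). SLC7A2, a carrier of arginine and other cationic amino acids, had the largest fall of the group, -0.67, with low levels of 4.45 ± 0.178 CPM in C1s-CM and 7.07 ± 0.353 CPM in control CM (SD, n = 3 each), and -0.18 with offsets (adjusted p = 0.392). The heavy and light chain pair SLC3A2 and SLC7A5, which carries large neutral amino acids and is not among the members, had log2 fold changes of 0.25 and 0.26, and 0.030 and 0.026 with offsets. The summed level of the group was 1234, 1215 and 1213 CPM in the C1s-CM libraries, against 1248, 1258 and 1288 CPM in the control libraries.

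Of 9 bicarbonate and ion carriers, 5 rose and 4 fell, and the members that rose were SLC4A7, SLC4A2, SLC4A3, SLC12A4 and SLC12A9. Without offsets the median log2 fold change was 0.19, and with them 0.013. SLC4A7, SLC4A2 and SLC8A1 were called with offsets, where 25.8% of all tested genes were called. SLC26A2, a sulfate transporter of the cell surface, had the largest fall, with 30.3, 32.1 and 33.5 CPM in the C1s-CM libraries, against 47.0, 51.4 and 53.0 CPM in the control libraries. The C1s-CM libraries of SLC26A2 were all lower, and its log2 fold change was -0.66 ± 0.065 (SE, adjusted p = 3.44e-09, edgeR), and -0.13 ± 0.061 with offsets (adjusted p = 0.13). SLC12A4 and SLC12A9 belong to the cation and chloride cotransporter family, of which SLC12A2, the sodium, potassium and chloride importer NKCC1, fell, with log2 fold changes of 0.25, 0.19 and -0.52. With offsets these were 0.017, -0.080 and -0.043, and none passed the threshold. With total counts alone SLC12A9 missed it as well, at 0.066 (adjusted p = 0.254). These 3 and SLC4A3 were named after their values were seen.

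Of 12 SLC25 carriers, 8 rose and 4 fell, where 50.9% of all tested genes were higher and 48.5% lower. The summed level of the group was 5085, 5155 and 5161 CPM in the C1s-CM libraries, against 4544, 4518 and 4439 CPM in the control libraries. This sum is weighted to the most abundant carriers, of which the highest had a mean of 1720 CPM, and it was not taken with offsets. The median log2 fold change of the group was 0.20 without offsets and -0.0086 with them, and SLC25A3 was the only one called with them. SLC25A10, which exchanges dicarboxylates for phosphate, had the largest rise, 0.38 ± 0.062 (SE), with 58.4 ± 2.45 CPM in C1s-CM and 44.9 ± 3.80 CPM in control CM (SD, n = 3 each), and 0.082 with offsets (adjusted p = 0.341). SLC25A10 shares 1221 of its 2621 exonic bases with an overlapping protein-coding gene on the same strand. SLC25A1, named after its values were seen, exports citrate from mitochondria for fatty acid synthesis. It had 766, 743 and 719 CPM in the C1s-CM libraries, against 607, 615 and 597 CPM in the control libraries, and the groups were well apart, with a log2 fold change of 0.29 ± 0.028 (SE, adjusted p = 2.39e-09), and -0.021 ± 0.023 with offsets (adjusted p = 0.557, edgeR). The 4 carriers that fell had a GC content of 34.2% to 41.5%, and the 7 that rose apart from SLC25A3 of 58.3% to 65.9%.

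Of 12 carriers of zinc and other metals, 4 rose and 8 fell. Their median was -0.26 without offsets and -0.0082 with them, and SLC39A10 was the only one called with them. All 4 SLC30 genes with a row fell, as did 4 of 6 SLC39 genes. These 8 genes had a GC content under 50%, a range where 6.15% of the 2587 tested genes were higher. With offsets the median log2 fold change was 0.078 for the SLC30 genes and -0.044 for the 6 SLC39 genes. SLC30A7, a zinc carrier of the early secretory pathway, had the largest fall, with 11.4, 8.55 and 9.47 CPM in the C1s-CM libraries, against 16.1, 14.1 and 20.1 CPM in the control libraries. Its libraries did not overlap, with a log2 fold change of -0.78 ± 0.13 (SE, adjusted p = 6.98e-06, edgeR), and -0.15 ± 0.12 with offsets (adjusted p = 0.403). SLC30A5 and SLC30A9, named after their values were seen, had -0.30 and -0.38 without offsets, and 0.18 and 0.15 with them, which missed the threshold (adjusted p = 0.0506 and 0.0952). SLC39A13, a zinc carrier of intracellular membranes, was the most abundant of the group per kilobase and had 237 ± 10.4 CPM in C1s-CM and 199 ± 4.76 CPM in control CM (SD, n = 3 each). Its log2 fold change was 0.25, and -0.017 with offsets. SLC48A1, a heme transporter of endosomes and lysosomes, had the largest rise, 0.33 ± 0.054 (SE), and 0.13 ± 0.054 with offsets (adjusted p = 0.0745).

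Both nucleoside carriers with a row rose. SLC29A1 encodes the equilibrative nucleoside transporter ENT1 and had 325, 310.1 and 303 CPM in the C1s-CM libraries, against 276, 281 and 278 CPM in the control libraries. SLC29A2, which encodes ENT2, had 25.5, 25.3 and 24.3 CPM in the C1s-CM libraries, against 20.2, 23.5 and 17.9 CPM in the control libraries. The groups did not overlap in either gene, and the log2 fold changes were 0.17 ± 0.031 and 0.28 ± 0.090 (SE). They were -0.029 and 0.040 with offsets (adjusted p = 0.506 and 0.791, edgeR), and with total counts as the only scaling both missed the threshold too. Without control CM replicate 3, SLC29A2 missed it without offsets as well (0.20).

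The 4 SLC35 carriers grouped as carriers of nucleotide sugars or the sulfate donor PAPS supply the Golgi and endoplasmic reticulum. Of these, 3 rose and 1 fell, and none was called with offsets. SLC35B2, which brings the sulfate donor PAPS into the Golgi, was the most abundant per kilobase, with 472 ± 13.9 CPM in C1s-CM and 409.5 ± 4.89 CPM in control CM (SD, n = 3 each), a log2 fold change of 0.21, and -0.0063 with offsets. SLC35A4 had the largest rise, 0.21, and 0.022 with offsets. SLC35A3, a carrier of UDP-N-acetylglucosamine, had the fall, -0.72 ± 0.12 (SE), with 7.35 ± 1.06 CPM in C1s-CM and 12.1 ± 0.272 CPM in control CM (SD, n = 3 each), and -0.093 ± 0.12 with offsets (adjusted p = 0.613, edgeR). SLC35A3 shares 1160 exonic bases with an overlapping protein-coding gene on the same strand.

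Of 4 carriers of monocarboxylates and other organic acids, SLC16A3 rose and 3 fell. SLC16A1 encodes MCT1, which carries lactate and pyruvate with protons in either direction, and had 73.2, 70.3 and 72.2 CPM in the C1s-CM libraries, against 87.2, 94.6 and 94.5 CPM in the control libraries. The C1s-CM libraries of SLC16A1, named after its values were seen, were all lower, with a log2 fold change of -0.36 ± 0.046 (SE, adjusted p = 2.33e-07, edgeR), and 0.056 ± 0.042 with offsets (adjusted p = 0.364). SLC16A7, which encodes the related carrier MCT2, had the largest fall of all members, -0.78 ± 0.19 (SE), at 53, 44 and 51 counts in C1s-CM and 98, 62 and 97 counts in control CM. It was -0.054 ± 0.19 with offsets (adjusted p = 0.873), and its transcript had the lowest GC content of the members, 33.3%. Per kilobase, SLC16A3 had 271 CPM per kb in C1s-CM and 240.1 CPM per kb in control CM, and SLC16A1 had 18.4 CPM per kb in C1s-CM and 23.6 CPM per kb in control CM.

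Of 7 carriers of vitamins, choline and lipids, 5 rose and 2 fell. SLC52A2 and SLC44A2 were called with offsets, both lower, where 25.8% of all tested genes were called, 11.5% lower. SLC27A4, which imports and activates fatty acids, had the largest rise, 0.34 ± 0.051 (SE), with 87.5 ± 5.63 CPM in C1s-CM and 68.9 ± 2.44 CPM in control CM (SD, n = 3 each), and 0.10 ± 0.048 with offsets (adjusted p = 0.117, edgeR). SLC33A1, the acetyl-CoA transporter of the endoplasmic reticulum, had the largest fall, -0.57 ± 0.11 (SE), and -0.026 ± 0.10 with offsets (adjusted p = 0.887). It shares 2123 of its 10040 exonic bases with an overlapping protein-coding gene on the same strand. The choline transporter SLC44A1, a paralog of SLC44A2 named after its values were seen, had -0.50 ± 0.049, and 0.061 with offsets (adjusted p = 0.343).

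Of the other 8 members, SLC9A3R1 was the only one called with offsets. SLC29A4, a transporter of monoamines, and SLC22A18, an imprinted gene of the organic cation transporter family, rose by 0.25 and 0.25 on the log2 scale, and had 0.036 and -0.063 with offsets. With total counts alone both missed the threshold, at 0.13 (adjusted p = 0.0832) and 0.12 (adjusted p = 0.142). Of 3 members with no assigned substrate, SLC10A3 had 0.21 and -0.065, and SLC35F5 -0.54 and -0.036, without and with offsets, and SLC10A3 missed the threshold with total counts alone (0.081, adjusted p = 0.117). Besides SLC9A3R1, the members that are no transporters include SLC2A4RG, a regulator of transcription named for the glucose transporter gene SLC2A4. It had 639, 633 and 625 CPM in the C1s-CM libraries, against 499, 490.4 and 504 CPM in the control libraries, groups that did not overlap, a log2 fold change of 0.34 ± 0.026 (SE, adjusted p = 7.5e-11), and 0.019 ± 0.027 with offsets (adjusted p = 0.652, edgeR). Its transcript had the highest GC content of the members, 68.1%.

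**Figure D4:**
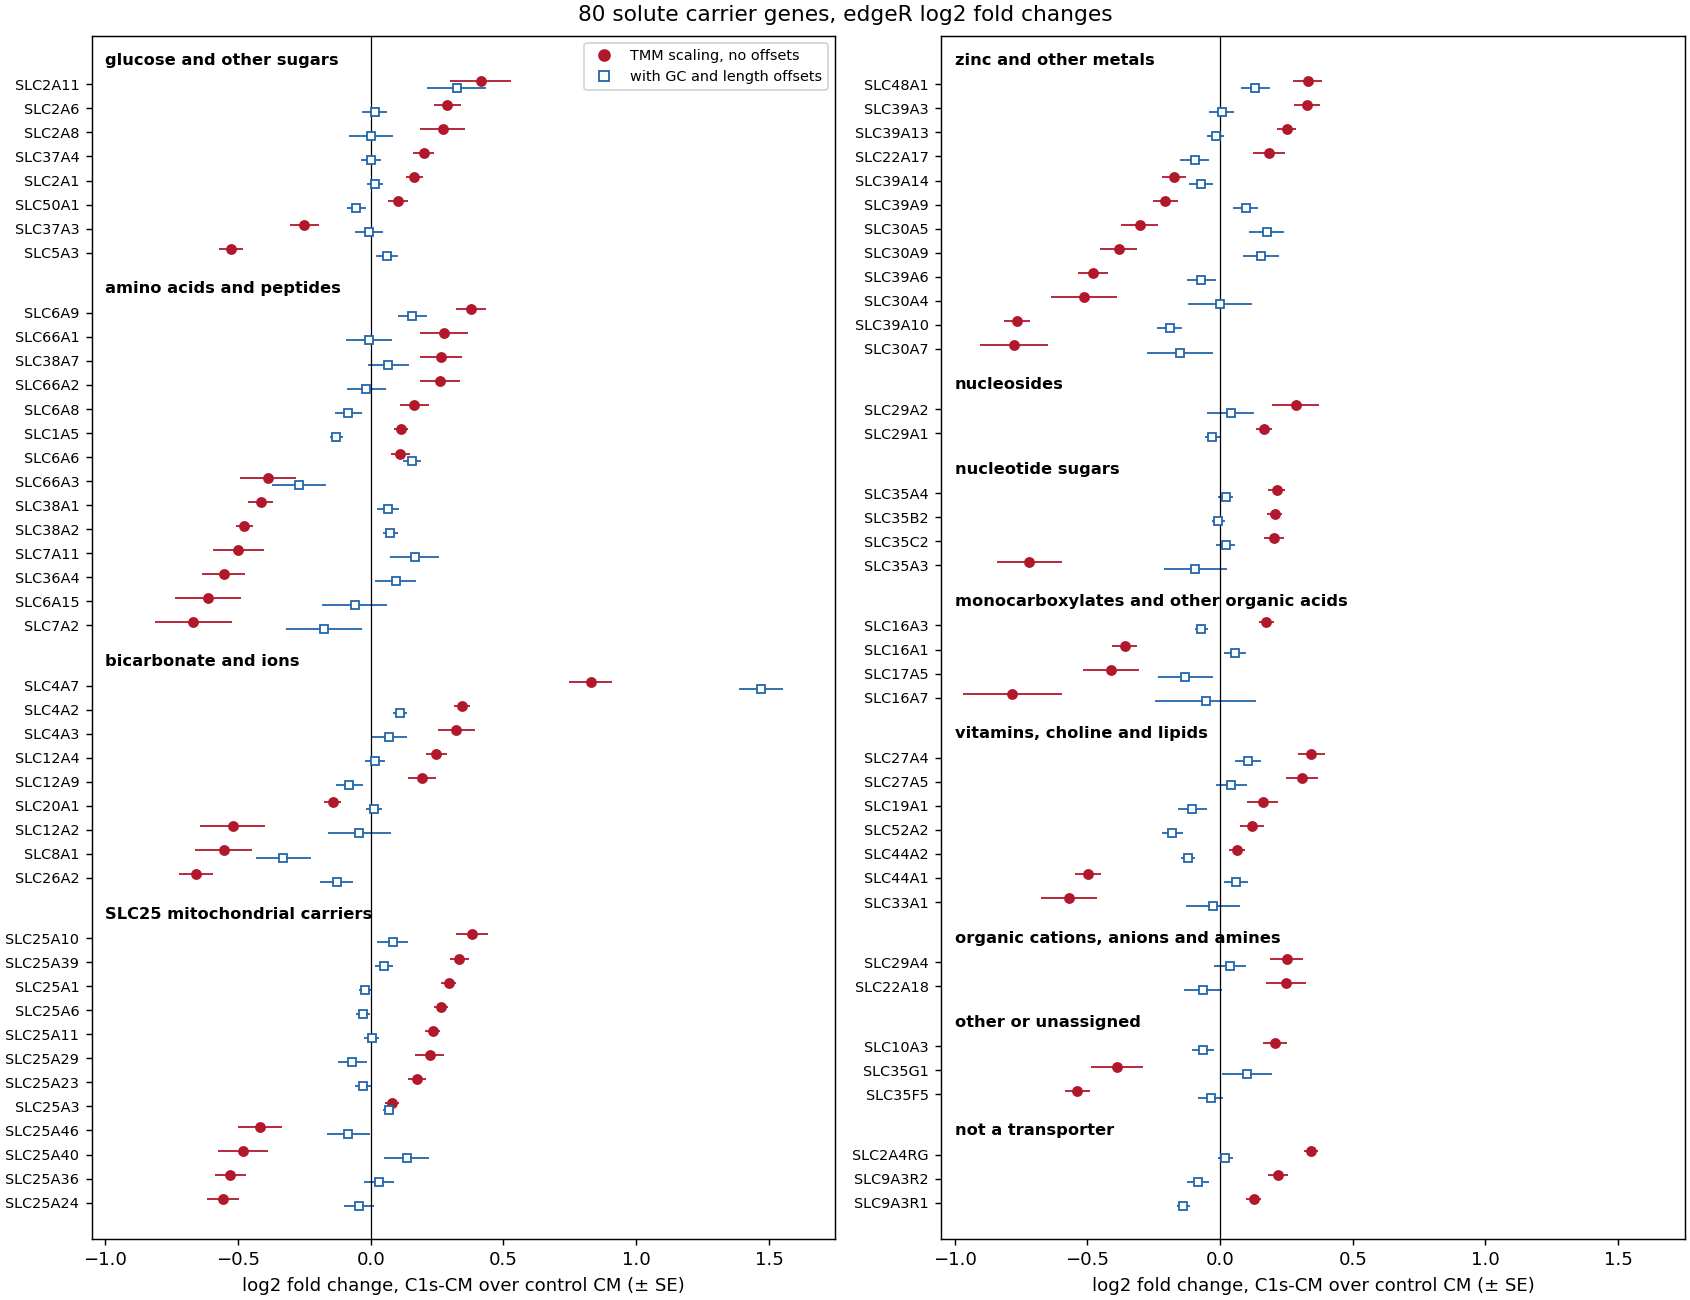
Log2 fold change of C1s-CM over control CM with its SE for all 80 solute carrier genes by substrate group, with TMM scaling and no offsets (red circles) and with GC and length offsets (blue squares). Without offsets 47 lie above and 33 below 0, and with offsets most lie near 0, apart from SLC4A7 at 1.47.

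Other transport genes, from lists chosen with earlier results of these data known, were likewise divided, and the counts are of listed genes with a row. Over all tested genes 50.9% were higher and 48.5% lower without offsets. Of 6 ABC transporters (24 listed) 2 rose and 4 fell, among them ABCA5, a lipid transporter of lysosomes and endosomes (-0.93), and ABCD3, a fatty acid transporter of peroxisomes (-0.50), and 0 were called with offsets. Of 6 sodium, potassium and calcium pump genes (12 listed) 2 rose and 4 fell, including the calcium pumps ATP2B1 (-0.61) and ATP2C1 (-0.32), and 1 was called lower with offsets. Of 8 V-ATPase genes, which acidify lysosomes (16 listed), 5 rose and 3 fell, ATP6V0B (0.34) and ATP6V1F (0.33) among the first, neither of them called with offsets. With offsets 3 V-ATPase genes were higher and 1 lower, where 25.8% of all tested genes were called. Of these, named after their values were seen, ATP6V0E1 was higher in both fits (0.078 and 0.22), ATP6V1A (-0.26 and 0.21) and ATP6AP2 (-0.25 and 0.11) turned from lower to higher, and ATP6AP1 (0.11 and -0.11) turned from higher to lower. Of 15 solute carriers without an SLC symbol (33 listed) 11 rose and 4 fell. With offsets 4 were higher and 2 lower, where 25.8% of all tested genes were called. Of these, MAGT1 (-0.29 and 0.16) and MFSD10 (0.17 and -0.13) had turned. MTCH2 was higher in both fits (0.088 and 0.40), and TUSC3 was lower in both (-0.29 and -0.26). In that list the mitochondrial carrier UCP2 had 0.33 and 0.10, and MPDU1, a factor in the use of dolichol-linked sugars, had 0.37 and 0.16, without and with offsets, all past the threshold. Of 6 transporter partners and regulators (12 listed) 1 rose and 5 fell, and with offsets TXNIP was higher and BSG lower, both in the opposite direction to that without offsets. BSG, the chaperone of MCT1 and MCT4, rose by 0.19 and was -0.083 with offsets, past the threshold in the opposite direction as SLC16A3 was, and CAB39, a partner of kinases that act on SLC12 carriers, had -0.42. Of 10 metal storage and uptake genes (16 listed) 8 rose and 2 fell. Those that rose included the metallothionein MT2A (0.34) and the ferritin light chain FTL (0.30). With offsets 4 were higher and 0 lower, where 14.3% of all tested genes were called higher and 11.5% lower. The 4 genes were FTL, the metallothioneins MT1E (0.54 and 0.25) and MT1X (0.76 and 0.55), and TFRC, which was lower without offsets (-0.27 and 0.18). MT2A was not called with offsets. MAGT1, MFSD10, MTCH2, TUSC3, TXNIP, TFRC, MT1E and MT1X were also named after their values were seen. The median log2 fold changes of the 6 lists with offsets ran from -0.043 to 0.080.

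Of the 80 members, 40 share exonic bases with another annotated gene on either strand, 28 of them with a protein-coding gene, and 9 with a gene that has a row itself. The counts of SLC25A6, an adenine nucleotide carrier in the pseudoautosomal region, and of SLC6A8, the creatine transporter, which has pseudogene copies, are also uncertain, and both are named for this alone.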

How the data were processed

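Gene expression was measured by RNA sequencing of poly(A) RNA from HMC3 cells in 6 libraries, 3 per group. Per the file headers the authors deposited unnormalized read counts for each gene. Beside them stand the authors' log2 fold changes and their p-values, raw and adjusted. Per the submitters' processing notes FastQC 0.11.9, Trim Galore 0.6.7, HISAT2 2.2.1 and DESeq2 1.40.2 were used with GRCh38, and the sources used here do not give the read counter, its annotation or whether it used strand. The table holds genes that passed the authors' threshold, so tests on it give sizes and errors and no independent evidence of change, and its column totals are a part of each library's depth.

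Counts were tested with edgeR 4.0.16 in R 4.3.3 (filterByExpr, which removed 1 gene, TMM scaling, two-sided quasi-likelihood test on group alone, Benjamini-Hochberg over 5116 genes, threshold 0.05). Each SE was taken as the size of the log2 fold change over the root of its F statistic, and CPM are scaled by TMM to the table's own totals. Offsets came from a loess fit per library (span 0.3) of log2 CPM against transcript length (log2) and GC content, from a representative GENCODE 29 transcript (5112 genes tested), chosen by principal isoform, support level and length. They were fitted on called genes alone. Alternatives were DESeq2 1.42.0, its size factors, total counts, no filter, each library left out, the replicate number as a block and offsets from the longest transcript, and for the offsets also a span of 0.6 and each library left out, both added after the data were seen. The steps were also run on simulated counts in which most genes were unchanged and any GC trend was linear. The deposited table holds called genes alone, so these runs do not show how the offsets behave on it. Members, lists and tests were chosen with earlier results of these data known. Named members are the largest rise, the largest fall and the highest level per kilobase of each substrate group and those called in both fits, 35 in all, and 14 others given with values are said to be named after their values were seen. Replicate libraries differed by more than counting noise. Sequences are from GENCODE 29 on GRCh38.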

Additional observations from a re-analysis of the deposited data

How the results depend on the processing

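Without offsets the 33 calls lower were 33 under every alternative without offsets, and the calls higher were 44 with DESeq2, 46 with its size factors, 47 without a filter, 44 to 46 with 1 library left out, and 21 where total counts alone set the scale. Offsets left 6 members higher and 7 lower, with the longest transcript 5 and 8, and with the replicate block and offsets together 4 and 6. With offsets and 1 library left out, 3 to 7 were higher and 5 to 7 lower, with 3 higher without control CM replicate 2 and without control CM replicate 3, and a span of 0.6 gave 6 and 7. The replicate block without offsets gave 46 higher and 33 lower. With the block and offsets SLC16A3 (adjusted p = 0.0679), SLC25A3 (0.0814) and SLC6A9 (0.0507) missed the threshold. The deviations of same-numbered libraries from their group means correlated at -0.15, -0.07 and -0.05, and no library correlated best with its own number. The numbers therefore gave no sign of pairing, but this check cannot show that same-numbered libraries were handled apart.

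Total counts alone also took 10 members that were named and kept their sign below the threshold, SLC2A1, SLC9A3R1, SLC10A3, SLC12A9, SLC16A3, SLC22A18, SLC25A23, SLC29A1, SLC29A2 and SLC29A4. Named members turned as follows. Total counts as the only scaling: SLC1A5 (-0.011), SLC25A3 (-0.044), SLC44A2 (-0.062), SLC50A1 (-0.024), SLC52A2 (-0.0052) and SLC6A6 (-0.014). Offsets: SLC10A3 (-0.065), SLC12A9 (-0.080), SLC16A1 (0.056), SLC16A3 (-0.071), SLC1A5 (-0.13), SLC22A18 (-0.063), SLC25A1 (-0.021), SLC25A23 (-0.028), SLC29A1 (-0.029), SLC30A5 (0.18), SLC30A9 (0.15), SLC35B2 (-0.0063), SLC38A1 (0.065), SLC38A2 (0.074), SLC39A13 (-0.017), SLC44A1 (0.061), SLC44A2 (-0.12), SLC50A1 (-0.054), SLC52A2 (-0.18), SLC5A3 (0.060), SLC7A11 (0.17) and SLC9A3R1 (-0.14). Offsets from the longest transcript: SLC10A3 (-0.081), SLC12A9 (-0.037), SLC16A3 (-0.079), SLC1A5 (-0.15), SLC22A18 (-0.022), SLC25A1 (-0.031), SLC25A23 (-0.051), SLC29A1 (-0.062), SLC2A1 (-0.043), SLC30A5 (0.16), SLC30A9 (0.14), SLC35B2 (-0.034), SLC38A1 (0.055), SLC38A2 (0.046), SLC39A13 (-0.010), SLC44A1 (0.065), SLC44A2 (-0.15), SLC50A1 (-0.081), SLC52A2 (-0.19), SLC5A3 (0.068), SLC7A11 (0.17), SLC8A1 (0.0076) and SLC9A3R1 (-0.16). Replicate block with offsets: SLC10A3 (-0.065), SLC12A9 (-0.080), SLC16A1 (0.056), SLC16A3 (-0.071), SLC1A5 (-0.13), SLC22A18 (-0.065), SLC25A1 (-0.021), SLC25A23 (-0.029), SLC29A1 (-0.030), SLC30A5 (0.18), SLC30A9 (0.15), SLC35B2 (-0.0066), SLC38A1 (0.066), SLC38A2 (0.074), SLC39A13 (-0.017), SLC44A1 (0.063), SLC44A2 (-0.12), SLC50A1 (-0.053), SLC52A2 (-0.18), SLC5A3 (0.061), SLC7A11 (0.17) and SLC9A3R1 (-0.14). The cause was not tested. The depth of whole libraries is unknown here, and SLC16A7, the member with the lowest counts, had the largest SE (0.19).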
